A study of Danio rerio with 15 samples.

Results

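A set of 8 genes that direct the making of motile cilia was followed in kidney ducts of zebrafish with an actl6a knockout: foxj1a, foxj1b, rfx2, rfx3, gmnc, e2f5, myb and stk36. They were chosen by name as regulators of motile and multiciliated cell fate, and each symbol was represented by the RefSeq accession with the highest summed count. Of the 8 members, 6 had a row among the 33298 accessions of the count tables, and 2 of them, foxj1a and e2f5, were abundant enough to enter the test of 12914 accessions. No row matched rfx2 or stk36, which were not analysed here. The libraries came from larvae at 72 h post fertilization (hpf). In the 8 mutant libraries the labels give the genotype actl6a knockout, made with CRISPR/Cas9 guide RNAs and collected as homozygous offspring of carriers. In the 7 sibling libraries they give WT, without saying whether heterozygous siblings were among them. Both groups carried the transgene Na, K-ATPase alpha1A4:GFP, which labels pronephric epithelium, and about 10 glowing duct fragments were picked from 15 collagenase-treated embryos per group. Whether a library holds 1 fragment or several is not stated, and picked fragments can carry adhering cells. Nothing states that libraries of a group came from separate clutches, so p-values measure the spread between these libraries.

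Multiciliated cells of the zebrafish pronephros beat to drive urine along the tubule, and they sit among transporting cells that carry a single cilium. Gmnc (GemC1) works at the top of their programme, where it pairs with E2F4 or E2F5 and a DP partner. Together they switch on genes for building many basal bodies, with Myb acting early in the same programme in mouse and frog. Foxj1 factors and RFX factors then switch on the genes of the motile axoneme, and in zebrafish foxj1a is needed for motile cilia in several organs, the pronephros among them. Stk36, a kinase of the Fused family, is needed for the central pair of microtubules in mouse motile cilia.

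The total count of a library was on average 2613491 ± 879089 (SD, n = 8) in mutants and 2141129 ± 466926 (SD, n = 7) in siblings, within an overall range of 1583052 to 4013852. Levels are CPM, the count scaled to the library total and TMM factor, and a floor of 3 counts corresponded to 0.742 to 2.21 CPM, depending on the library. The largest count in a library lay between 5558 and 6432 in all 15 libraries although totals differed up to 2.54-fold. Whether high counts were limited in the counting (a cap, or saturation of molecular identifiers) is not given in the sources used here and was not tested. CPM, unscaled counts and their relation to the total carry that limit. The targeted gene, actl6a, averaged 24.9 ± 11.5 CPM in mutants and 84.2 ± 10.9 CPM in siblings (SD, n = 8 and 7), with no overlap. Groups did not overlap, in either direction, for 2.31% of all tested accessions. All mutant libraries were sequenced under a different index from all sibling libraries, so for every comparison the index cannot be told apart from genotype.

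Near the top of the programme, gmnc and myb had few counts. Transcripts of gmnc (XM_009291838.3), which encodes the coiled-coil inducer of the multiciliated fate, were counted 13 times in 5 of 8 mutant libraries and 7 times in 4 of 7 sibling libraries. The highest library was mutant replicate 2 with 5 counts. Pooled over libraries this came to 0.622 CPM in mutants (95% Poisson interval 0.331 to 1.06) and 0.467 CPM in siblings (0.188 to 0.962). A difference was not detectable at these counts (exact two-sided permutation p = 0.706). For myb (NM_001309822.1), which encodes a transcription factor of blood progenitors as well as of multiciliated cells, 1 count was found in mutants, in replicate 5. Siblings had 0 counts in 14987901, which allows up to 0.246 CPM (upper end of the 95% Poisson interval). Pooled values and their intervals, here and for rfx3, are divided by the summed library totals without TMM factors. These intervals cover counting error only.

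Among the other genes of the same step, listed by name as multiciliated cell inducers and deuterosome genes, 6 of 11 had a row and 3 were tested. None of the 3 passed by edgeR, beside 19.2% of all tested accessions called in either direction. At 15 counts or fewer over all libraries stood tp73, tfdp1b and foxn4. The tested genes were gmnn, with a log2 fold change (mutant over sibling) of -0.64 (SE 0.33), e2f4, with 0.39 (SE 0.23), and tfdp1a, which encodes a DP partner of E2F proteins, with -1.37 (SE 0.69). gmnn encodes Geminin, a relative of Gmnc that is not itself an inducer. The adjusted p-values of gmnn, e2f4 and tfdp1a from edgeR were 0.187, 0.256 and 0.171. At an unadjusted p under 0.05 the count was 0 in edgeR. DESeq2 also called 0 of the 3, whereas limma voom with quality weights called 3. Over all 12914 tested accessions DESeq2 called 2568 and voom with these weights 5566, in either direction. Without mutant replicate 1, the highest in gmnn at 81.9 CPM, gmnn was called lower by edgeR, at -0.93 (adjusted p = 0.0324). Leaving out that replicate was bound to make the gmnn change more negative. The fit without it called 3390 accessions in either direction, against 2476 with all libraries.

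Of the 2 members tested, e2f5 passed the edgeR test between genotypes and foxj1a did not. The main e2f5 accession, NM_001197300.1, had 14.8, 37.1 and 84.8 CPM as the lowest, median and highest mutant value, against 74.3, 91.1 and 131.1 CPM in siblings. Mutant replicate 3, the highest of its group, lay inside the sibling range, and the other 7 of 8 mutant libraries lay below every sibling. The mean was 42.8 ± 25.1 CPM in mutants and 97.0 ± 18.5 CPM in siblings (SD, n = 8 and 7). Levels in mutants were thus 0.423-fold those in siblings by edgeR (log2 fold change -1.24, SE 0.31, adjusted p = 0.0108). This 1 member that fell stands beside 5.54% of all tested accessions that were called lower and 19.2% called in either direction. Without mutant replicates 4, 5, 6 and 8, the ones with the most detected accessions, the change was -0.64 and not called (adjusted p = 0.0981). These replicates also had the least e2f5 of the mutants, at 14.8 to 30.0 CPM, so the change without them had to be smaller. With all libraries it was also not called, at -0.74 (adjusted p = 0.0760), with the number of detected accessions as a term, nor at -0.68 (adjusted p = 0.140) when the summed share of erythrocyte and endothelium markers entered the model.

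Without division by the library total, e2f5 counts were 55 to 187 in mutants and 137 to 253 in siblings. They averaged 94.0 ± 43.5 in mutants and 204.7 ± 47.9 in siblings (exact two-sided permutation p = 0.00124 on log2 counts, n = 8 and 7). Mutant replicate 3 was again the one inside the sibling range. The share of all accessions with lower undivided counts was not computed. A second e2f5 accession, NM_205615.2, had fewer counts, at 5.15 ± 2.42 CPM in mutants and 7.09 ± 2.15 CPM in siblings (SD, n = 8 and 7), and 2 of 8 mutants lay under the lowest sibling and 1 over the highest. Its log2 fold change of -0.62 (SE 0.29) did not pass (edgeR adjusted p = 0.145), but it was called without mutant replicate 1, at -0.81 (edgeR adjusted p = 0.0347). That replicate was the highest mutant for this accession, at 10.3 CPM, so the fall without it had to be larger. The fit without it called 3390 accessions in either direction, against 2476 with all libraries. How reads shared by both transcripts were assigned is not stated, and with the counts of both summed e2f5 fell by 1.17 on the log2 scale (edgeR adjusted p = 0.00979).

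**Figure D1:**
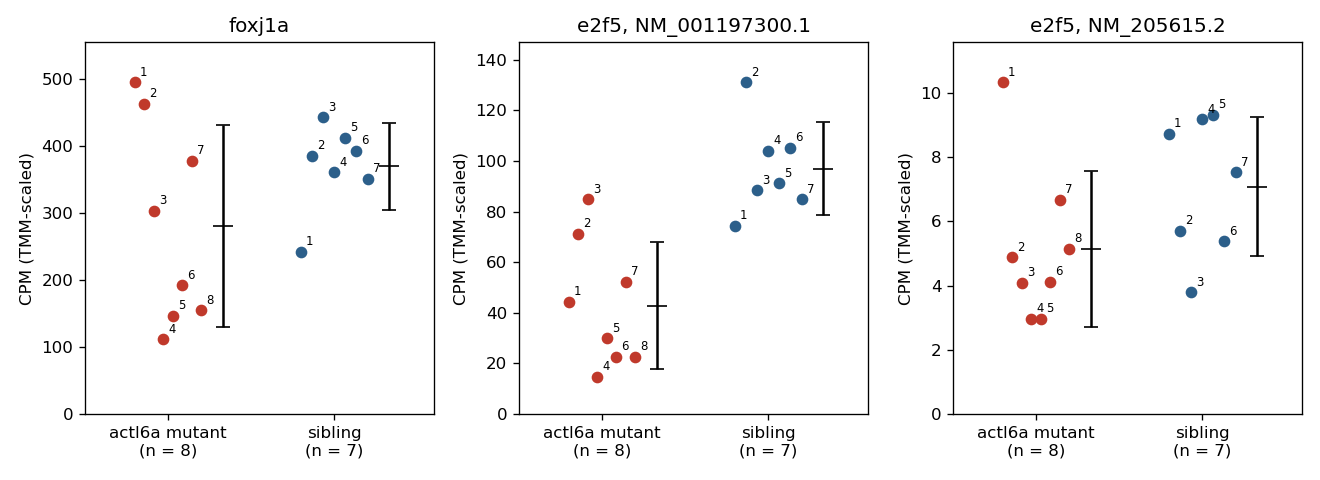
Levels in TMM-scaled CPM (vertical axis) of foxj1a and of both e2f5 accessions in each library, with actl6a mutants left of siblings. Numbers are replicate numbers, and bars show the mean and SD of each group. For the main e2f5 accession 7 of 8 mutant points lie below all sibling points, whereas foxj1a spans 111.6 to 494.6 CPM in mutants, on both sides of the siblings.

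The forkhead factors lie next in the programme. foxj1a (NM_001076706.2) was well measured, with 451 to 864 counts per library, and in mutants its level spread from 111.6 CPM through a median of 247 CPM to 494.6 CPM, against 241, 385 and 442 CPM in siblings. Replicates 4, 5, 6 and 8 were lower than every sibling, replicates 1 and 2 higher, and replicates 3 and 7 inside the sibling range. The CPM did not pass the test, by edgeR (log2 fold change -0.41, SE 0.29, adjusted p = 0.339). The counts themselves were lower in mutants, at 589 ± 108 against 764 ± 83.2 in siblings (SD, n = 8 and 7, exact two-sided permutation p = 0.00668 on log2 counts), while the library totals did not pass the same exact permutation test (p = 0.272). That result does not show the totals to be equal. The share of all accessions with lower undivided counts was not computed. The number of detected accessions, 18188 to 27413 in mutants and 18841 to 23992 in siblings, did differ (exact permutation p = 0.0465), and its r with the foxj1a level was -0.93 over 15 libraries. By limma voom with quality weights the foxj1a level was called lower, at -0.96 (adjusted p = 0.0060), beside 5566 of 12914 tested accessions called in either direction. With the number of detected accessions as a term in edgeR the foxj1a change was 0.091 and not called. Across the 15 libraries the foxj1a level in CPM went with the total count, with r of -0.96 (Pearson) and rho of -0.96 (Spearman; permutation p = 1e-05 for both, the smallest that 100000 permutations can give). Within the 8 mutants r was -0.99 and within the 7 siblings -0.92. The level is itself divided by this total, so a negative r was partly built in. The permutation p does not allow for that. foxj1b (XM_009306612.2), the paralog known from the zebrafish otic vesicle, had 1 count in mutants and 1 in siblings, and no difference was detectable.

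Of the RFX factors, which bind promoters of ciliary genes, rfx3 (NM_001080048.1) stayed close to the floor. It had 16 counts in 7 of 8 mutant libraries and 8 counts in 6 of 7 sibling libraries, with at most 4 in a library. The pooled level was 0.765 CPM in mutants (95% Poisson interval 0.437 to 1.24) and 0.534 CPM in siblings (0.230 to 1.05), with an exact two-sided permutation p of 0.386. Of 7 other RFX genes 2 had a row. Of these, rfx4 had 15 counts in all and rfx7a, the tested one, was at 47.8 CPM in mutants and 46.5 CPM in siblings on average, with no call by edgeR (unadjusted p under 0.05 in 0), DESeq2 (0) or limma voom with quality weights (0).

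The relation between e2f5 and foxj1a was asked within each library, as a ratio of counts that does not depend on the library total. Libraries of mutants held 0.158 ± 0.0589 e2f5 counts per foxj1a count and those of siblings 0.267 ± 0.0495 (SD, n = 8 and 7). Mutant ratios ran from 0.0896 to 0.280 and sibling ratios from 0.200 to 0.341. Replicates 3 and 5 of the mutants reached into the sibling range, and the other 6 of 8 mutants lay below every sibling. On the log2 scale the ratio was lower by -0.79 in mutants (exact two-sided permutation p = 0.00342, 0.0103 adjusted over 3 ratios). Without mutant replicates 4, 5, 6 and 8 it was -0.78 (exact permutation p = 0.0152), and leaving out 1 library at a time gave -0.92 to -0.68 with exact permutation p-values up to 0.00866. Over all 15 libraries the ratio had a Pearson r of 0.00099 with the total count and of -0.23 with the number of detected accessions. Inside the genotypes these r were positive, at 0.29 and 0.25 within mutants and 0.50 and 0.24 within siblings. None of them passed (exact permutation p of 0.260 or more). For the second accession the ratio was 0.0205 ± 0.00713 in mutants and 0.0204 ± 0.00908 in siblings (exact permutation p = 0.667, n = 8 and 7).

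**Figure D2:**
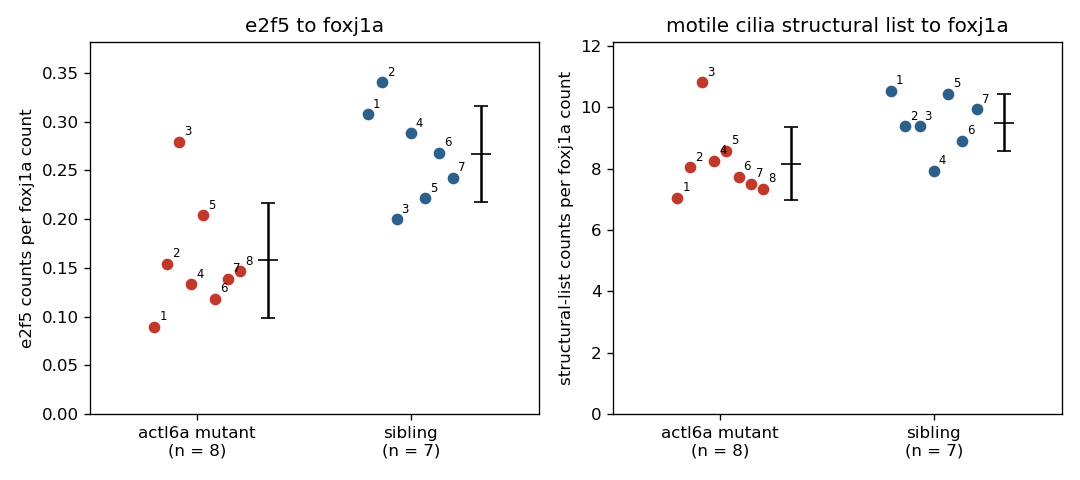
Counts per foxj1a count in each library for e2f5 (left) and for the summed motile cilia structural list (right), mutants left of siblings. Numbers are replicate numbers and bars the mean and SD. The e2f5 ratio is 0.0896 to 0.280 in mutants and 0.200 to 0.341 in siblings.

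Across libraries, levels were set against foxj1a on the log2 scale for 19 items, with p-values adjusted over them by the Benjamini-Hochberg method. All these levels share the division by the library total, with which foxj1a itself went. e2f5 was higher where foxj1a was higher, with a Pearson r of 0.81 over 15 libraries (permutation p = 0.00056, adjusted 0.00118) and a Spearman rho of 0.54 (permutation p = 0.0398, adjusted 0.0540). Without mutant replicates 4 and 5, farthest from the median of foxj1a, r was 0.67. Within the 8 mutants r was 0.83 (exact permutation p = 0.0180, adjusted 0.0285) and rho 0.69 (exact permutation p = 0.0694, adjusted 0.0942), and within the 7 siblings r was 0.51 (exact permutation p = 0.238, adjusted 0.378) and rho 0.39 (exact permutation p = 0.396, adjusted 0.619). Without sibling replicates 1 and 3 the sibling r was 0.21. On counts not divided by the total, r was 0.80 over the 15 libraries, 0.57 within mutants (exact permutation p = 0.133) and 0.69 within siblings (exact permutation p = 0.0901). The relation inside a genotype therefore did not pass on counts. Without the 2 libraries of each set farthest from its median foxj1a count, these r were 0.68, 0.20 and -0.17. No relation was computed for foxj1b, rfx3, gmnc and myb, whose counts lie at the floor.

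**Figure D3:**
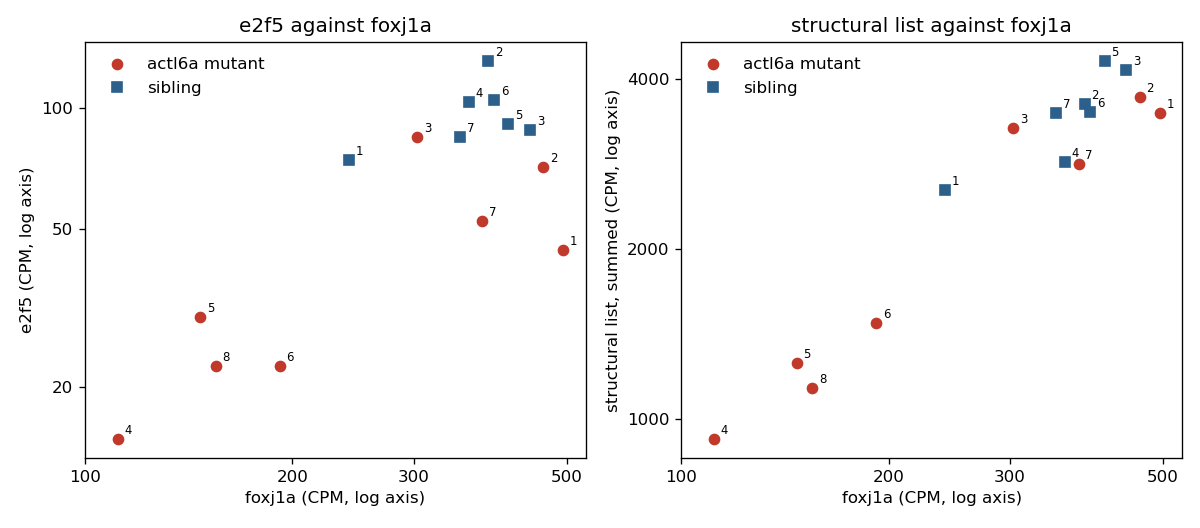
Level of e2f5 (left) and summed level of the structural list (right) against foxj1a in each library, all in TMM-scaled CPM on log axes, with circles for mutants and squares for siblings. Mutant replicates 4, 5, 6 and 8 lie at the lower left of both plots, and mutant replicates 1, 2 and 7 have foxj1a in or above the sibling range with less e2f5 than every sibling.

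Of 7 pronephric epithelium markers with a row 6 were tested, and, beside 5.54% of all tested accessions called lower, 1 fell. This was slc20a1a, which encodes a phosphate transporter, at 136 ± 72.9 CPM in mutants and 349 ± 224 CPM in siblings (SD, n = 8 and 7; edgeR log2 fold change -1.41, SE 0.41, adjusted p = 0.0242), with 5 of 8 mutants below every sibling. The relation to foxj1a is given here for cdh17 and atp1a1a.4. cdh17, which encodes a cadherin of the pronephric epithelium, had r of 0.96 with foxj1a over 15 libraries and 0.98 within mutants (exact permutation p = 0.000174, adjusted 0.00330, n = 8), but 0.65 within siblings (exact permutation p = 0.111, n = 7). The Na, K-ATPase gene atp1a1a.4 had 0.88, 0.93 and 0.60 in the same order. Without sibling replicates 1 and 3 the sibling r was 0.14 for cdh17 and -0.0097 for atp1a1a.4. These levels share the division by the library total. No relation on counts not divided by the total was computed for either gene. Neither passed the edgeR genotype test, with log2 fold changes of -0.30 (SE 0.26) for cdh17 and -0.18 (SE 0.27) for atp1a1a.4. By limma voom with quality weights both were called lower, at -0.75 (adjusted p = 0.0104) and -0.60 (adjusted p = 0.0388). Voom with these weights called 5566 of 12914 tested accessions in either direction. In such bulk tissue, fewer cells of a type and less RNA per cell cannot be told apart.

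Levels of 6 accessions followed foxj1a most closely inside both genotypes, by the lower of the 2 within-genotype Pearson correlations. They were found among 10908 tested ones with a mean of at least 10 CPM. They were rassf8b (0.97 within mutants and 0.97 within siblings), XM_001336831.6, which matched no symbol (0.96 and 0.96), kcnj15 (0.96 and 0.96), rnf128a (0.95 and 0.95), elf3 (0.97 and 0.95) and pef1 (0.96 and 0.95). kcnj15 encodes an inwardly rectifying potassium channel and elf3 an ETS factor of epithelia. Over all 15 libraries r was 0.69 for rnf128a, 0.86 for elf3 and 0.93 to 0.97 for the others. None of the structural cilia genes was among these 6. By the same measure e2f5 ranked 1929, and 33 structural genes had a median of 0.66 against -0.30 over all accessions compared. These are descriptions over 8 and 7 libraries, chosen as the closest of many. All these levels share the division by the library total, with which foxj1a had r of -0.99 within mutants and -0.92 within siblings. No relation on counts not divided by the total was computed for these 6.

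Genes for the pronephric choice between multiciliated and transporting cells were followed as a list of 12 names, 10 with a row and 8 tested. The list had 1 gene that fell and 0 that rose, beside 5.54% of all tested accessions called lower and 13.6% called higher. Its median log2 fold change was 0.17, against 0.04 over all tested accessions. her9, which encodes a Hairy-type transcriptional repressor, was at 116, 150.4 and 187 CPM as the lowest, median and highest mutant value, against 197, 245 and 269 CPM in siblings. All 8 mutant libraries lay below every sibling, and such separation held for 2.31% of all tested accessions. By edgeR her9 fell by 0.62 on the log2 scale (SE 0.13, adjusted p = 0.00309). The ligand genes jag2b and jag1b, the receptors notch1a and notch3, and the factors irx2a, hnf1ba and hnf1bb did not pass by edgeR. Of the 8 tested genes of the list DESeq2 called 1 and limma voom with quality weights 6, where DESeq2 called 2568 and voom 5566 of all 12914 tested accessions. Levels of mecom and ppargc1a were not analysed here, and irx1a and etv5a had at most 15 counts.

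Among these genes, hnf1bb, a homeobox factor of kidney tubules, and irx2a, an Iroquois factor of pronephric segments, were higher where foxj1a was higher, with r of 0.92 and 0.82 over 15 libraries. Within mutants the values were 0.97 and 0.89, with exact permutation p-values of 0.000471 and 0.00853 (adjusted 0.00440 and 0.0172, n = 8). Within siblings they were 0.48 and 0.18 and did not pass (exact permutation p = 0.293 and 0.695, n = 7). e2f4, jag2b and notch1a went the other way, with r of -0.83, -0.76 and -0.66 over 15 libraries and -0.94, -0.78 and -0.84 within mutants. Within siblings these were -0.65, -0.75 and -0.46, and without sibling replicates 1 and 3 they were 0.05, 0.36 and 0.46. The sibling values of these 3 genes thus rest on those libraries. All levels in this paragraph share the division by the library total, with which foxj1a itself went. No relation on counts not divided by the total was computed for these genes.

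Since no row matched stk36, its partners and the hedgehog pathway, in which Fused kinases act in flies, were followed as a list of 8 names, 6 with a row and 2 tested. Both tested genes, the effectors gli1 and gli2a, were called higher, beside 13.6% of all tested accessions. gli1 had 4.43, 51.1 and 93.0 CPM as the lowest, median and highest mutant value, against 0, 0.542 and 31.9 CPM in siblings. The highest sibling was replicate 1, and mutant replicates 4, 5, 6 and 8 lay above it. The log2 fold change was 2.88 (SE 0.77, edgeR adjusted p = 0.0157) for gli1 and 2.26 (SE 0.76, edgeR adjusted p = 0.0479) for gli2a. Without mutant replicates 4, 5, 6 and 8 neither was called, at 0.84 and 0.50. Nor was either called with the number of detected accessions as a term, at 1.03 and 0.56 (edgeR adjusted p = 0.176 and 0.511). With the erythrocyte and endothelium marker share as a term gli1 was 1.54 (edgeR adjusted p = 0.0432) and gli2a 0.98 and not called (0.182). The gli2a call was also lost when any 1 library other than sibling replicate 1 or mutant replicates 1, 2 or 3 was left out, at an adjusted p of up to 0.0978. Without sibling replicate 1 the changes were 5.46 and 4.84. The ligand gene shha, counted among floor plate markers, was at 11.1 to 119 CPM in mutants and 0 to 10.3 CPM in siblings, with no overlap (edgeR log2 fold change 4.84, SE 0.55, adjusted p = 1.14e-05). A lack of overlap, in either direction, held for 2.31% of all tested accessions.

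Downstream of foxj1a and the RFX factors, structural and assembly genes of the motile axoneme were followed as a list of 54 names, 43 with a row and 37 tested. It had 16 genes that fell and 0 that rose, with a median log2 fold change of -0.81 and 36 of 37 below 0. Over all tested accessions 5.54% were called lower and 13.6% higher. The 3 with the smallest p-values were dnah5, a heavy chain of the outer dynein arm, at -1.77 (SE 0.28), cfap73, at -1.58 (SE 0.26), and dnai4, at -1.73 (SE 0.31), with edgeR adjusted p-values of 0.000481, 0.000695 and 0.00125. For dnai4 the mean was 15.6 ± 9.98 CPM in mutants and 47.2 ± 9.18 CPM in siblings (SD, n = 8 and 7), and all 8 mutant libraries lay below every sibling. Such separation, in either direction, held for 2.31% of all tested accessions. The count of genes that fell dropped to 10 without mutant replicate 5, 6 or 8, and to 3 without mutant replicates 4, 5, 6 and 8 together. Replicates 4, 5, 6 and 8 were also the mutants with the lowest summed level of the list. The pattern that cilia genes were lower was known from earlier results of these data.

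The structural list was also set against foxj1a within each library. Its summed counts per foxj1a count were 8.16 ± 1.18 in mutants and 9.50 ± 0.918 in siblings (SD, n = 8 and 7), lower by -0.23 on the log2 scale (exact two-sided permutation p = 0.0274, adjusted 0.0410). Leaving out mutant replicate 1, sibling replicate 1 or sibling replicate 5 gave exact permutation p-values of 0.0501, 0.0536 and 0.0529, and without mutant replicates 4, 5, 6 and 8 it was -0.20 (exact permutation p = 0.142). The summed level went with foxj1a at r of 0.96 over 15 libraries, 0.97 within mutants (exact permutation p = 0.000694, adjusted 0.00440, n = 8) and 0.87 within siblings (exact permutation p = 0.00417, adjusted 0.0792, n = 7). On counts not divided by the total, r was 0.88 over the 15 libraries and 0.83 within mutants (exact permutation p = 0.0112, adjusted 0.0336). Within siblings it was 0.54 and did not pass (exact permutation p = 0.212). Without the 2 libraries of each genotype farthest from its median foxj1a count, r on counts was 0.70 within mutants and -0.02 within siblings. The difference between the e2f5 ratio and the structural ratio was not tested.

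**Figure D4:**
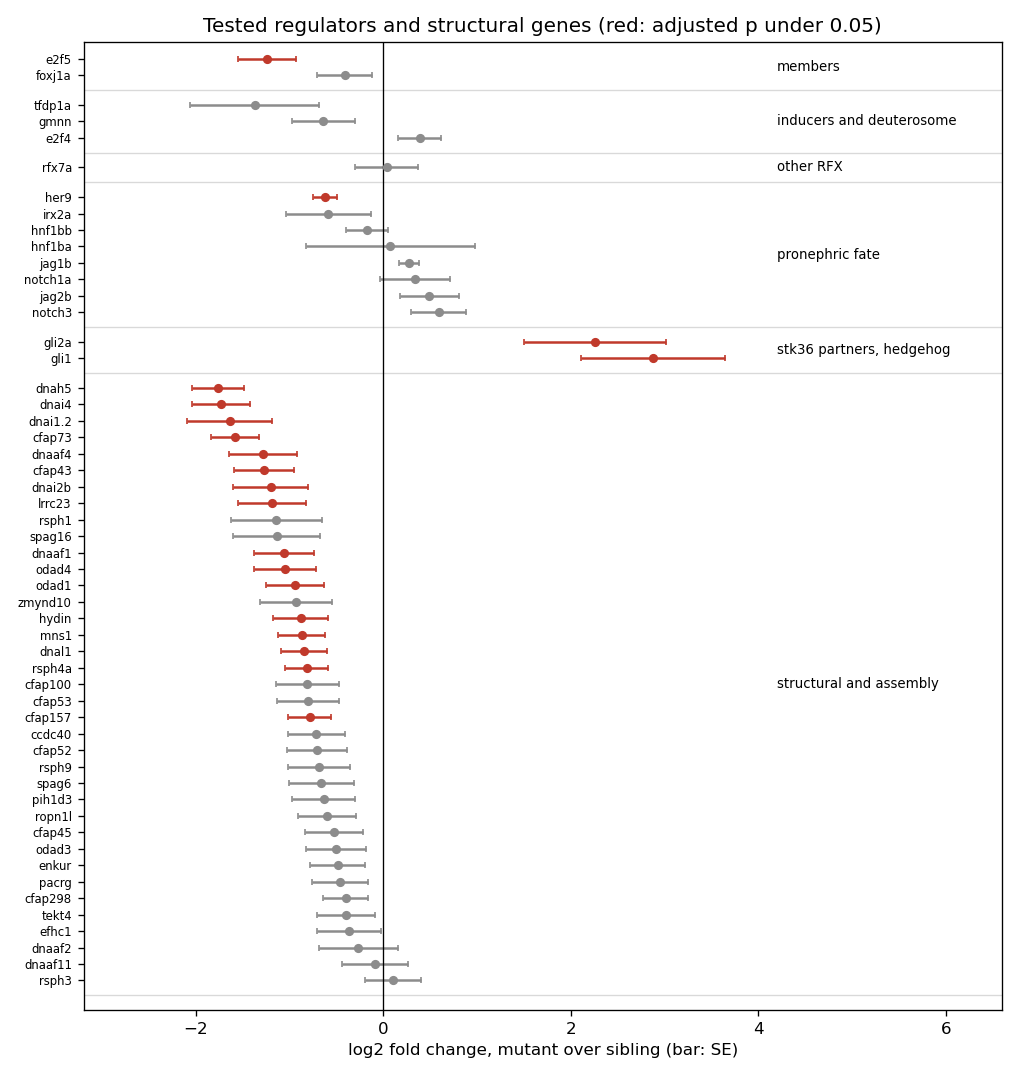
Log2 fold change, mutant over sibling (horizontal axis, bars show SE), of the 2 tested members and of the tested genes of 5 lists, with those at an adjusted p under 0.05 in red. e2f5 lies at -1.24 and foxj1a at -0.41, both tested hedgehog effectors lie right of 0, and 36 of 37 structural genes lie left of it.

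Summed levels of markers of other cells moved with genotype, and over the 15 libraries most went with the members. The blood progenitor and leukocyte sum had an r of -0.15 with foxj1a (permutation p = 0.594). Over 15 libraries the epidermis and floor plate sums had r of -0.53 and -0.57 with foxj1a. Within siblings these were 0.64 and 0.43 and did not pass (exact permutation p = 0.0861 and 0.371). Mutant libraries had summed levels of 510.8 to 4412 CPM for 10 erythrocyte markers and 168 to 1270.1 CPM for 11 endothelium markers, against 201 to 2182 and 68.02 to 879 CPM in siblings. Of 7 tested erythrocyte markers edgeR called 1 higher, hbbe1.1 (log2 fold change 2.41, adjusted p = 0.0497), and 1 lower, tfr1a (-0.60, adjusted p = 0.00306). Of 8 tested endothelium markers it called 1 higher, she (2.72, adjusted p = 0.0318). Over all tested accessions 13.6% were called higher and 5.54% lower. The erythrocyte sum had an r of -0.82 with foxj1a and of -0.84 with e2f5 over 15 libraries, and of -0.42 with their ratio. Within mutants its r with foxj1a and e2f5 was -0.85 and -0.81 (exact permutation adjusted p = 0.0299 and 0.0643). Within siblings it was -0.91 and -0.64 and did not pass (exact permutation p = 0.108 and 0.149). The sibling Spearman rho with foxj1a was -0.29. For 9 epidermis markers the sum was 763 to 4371 CPM in mutants and 169 to 793 CPM in siblings, with 7 of 8 mutants above every sibling. Of 7 tested epidermis markers edgeR called 5 higher, krt4, krt5, krt91, krt92 and tp63, and 0 lower, while krt17 and evpla were not called. Blood progenitor and leukocyte markers, which bear on myb, summed to 670.2 to 954 CPM in mutants and 558 to 727 CPM in siblings. Of 13 with a row 8 were tested and csf1ra had at most 15 counts. By edgeR 3 of the 8, coro1a, lcp1 and lyz, were called higher, beside 13.6% of all tested accessions. The other 5 were not called, with log2 fold changes of 1.46 for tal1, 0.08 for rac2, 0.07 for lmo2, -0.07 for cebpa and -0.09 for gfi1aa. cebpa made up much of the sum, at 380.4 ± 103.6 CPM in mutants and 399 ± 59.9 CPM in siblings (SD, n = 8 and 7). Floor plate, another tissue that expresses foxj1a, had 5 of 6 markers with a row and a sum of 16.2 to 148 CPM in mutants against 1.04 to 11.4 CPM in siblings. Within it shha averaged 75.8 ± 37.4 CPM in mutants and 2.89 ± 3.59 CPM in siblings (SD, n = 8 and 7), and shhb had at most 15 counts. Pronephric epithelium markers summed to 1702 to 5829 CPM in mutants and 2772 to 4596 CPM in siblings. Of 9 such library measures, the e2f5 to foxj1a ratio went with 3 over the 15 libraries after adjustment over them: the blood and leukocyte sum (r of -0.74, permutation adjusted p = 0.0126), the epidermis sum (-0.72, 0.0126) and the floor plate sum (-0.64, 0.0327). Within mutants these r were -0.28, -0.22 and 0.50, and within siblings -0.82, -0.69 and -0.88, and none passed after adjustment in either genotype. The part of these tissues in the e2f5 and foxj1a results was not tested beyond the term for the erythrocyte and endothelium share.

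E2F5 also acts with the cell cycle machinery, so 20 cell cycle genes were followed, 17 with a row and 16 tested. By edgeR 0 were called (4 at an unadjusted p under 0.05), beside 19.2% of all tested accessions called in either direction. DESeq2 called 1 and limma voom with quality weights 3, where DESeq2 called 2568 and voom 5566 of all 12914 tested accessions. The median log2 fold change was -0.01, with 8 genes below and 8 above 0.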

How the data were processed

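The authors deposited 2 tables of raw counts, 1 for each sequencing index, with a row per RefSeq accession and a column per library. The submitters' processing notes name cutadapt, FastQC, STAR, featureCounts, edgeR and the build GRCz11. Tool versions, the annotation release and whether counts stand for reads or molecules are not given in the sources used here. Both tables were joined, with 0 for an accession listed in only 1 of them. Symbols came from the RefSeq gene table of GRCz12tu, version ignored, and 20452 accessions (61.4%) matched. edgeR 4.0.16 in R 4.3.3 was run with TMM, filterByExpr, robust glmQLFit with bias adjustment, glmQLFTest and Benjamini-Hochberg adjustment over 12914 accessions, at a threshold of 0.05. On simulated data it recovered 35.4% of log2 changes of 1 and 80.4% of those of 2, and 3.4% of 116 calls were false. Far fewer genes were changed in the simulation than were called in these data, so its rates need not hold here. Changes of such size that were not called could have been missed. SE is the log2 fold change over the square root of F. Log2 CPM used a prior count of 2. Single values were compared by the exact permutation test over samples, and correlations by 100000 permutations over 15 libraries and exactly over 8 and 7. Python 3.11.15, numpy 2.4.6, scipy 1.17.1, pandas 2.3.3 and matplotlib 3.10.9 served for the rest. Alternatives used DESeq2 1.42.0 and limma 3.58.1.

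The members and lists were chosen with earlier results of these data known. Named genes are the members, actl6a, genes of the 4 regulator lists past the threshold, the 3 structural genes with the smallest p, the 6 accessions closest to foxj1a, and both duct markers; gmnn, e2f4, tfdp1a, shha and genes named without passing were added after their values were seen. Ratios and relations of the structural list, and unscaled counts, were also added then.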

Additional observations from a re-analysis of the deposited data

Results flagged for a closer look

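By Dixon's test at 95%, 9 values, from sibling replicates 1 and 3 and mutant replicates 1 and 3, stood apart from the rest of their group in 64 groups of values, where chance gives about 3.2. Sibling replicate 1 was highest of its group for gli1 (31.9 CPM), gli2a (55.6 CPM) and the summed stk36 partner and hedgehog list (93.2 CPM), and also for the summed erythrocyte (2182 CPM), endothelium (879 CPM) and neuron (89.3 CPM) markers. Sibling replicate 3 was highest for shha, at 10.3 CPM. Mutant replicate 1 was highest for gmnn, at 81.9 CPM, with 42.6 CPM in the next mutant library. Mutant replicate 3 was highest for the log2 ratio of the structural list to foxj1a, at 3.43, with 3.09 next. These measures share libraries and are not independent of each other.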

How the results depend on the processing

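The e2f5 decrease was called in all 15 fits that left out 1 library (log2 fold change -1.47 to -1.12) but not under 4 other settings. Members called numbered 2 with limma voom quality weights, which also called foxj1a, and 0 at an adjusted p under 0.01, with detected accessions as a term, with the summed erythrocyte and endothelium marker share as a term, and without mutant replicates 4, 5, 6 and 8. Accessions called, 2476 as reported, numbered 5566 with voom weights, 3960 with no filter, 1031 at 0.01, 1281 with the detected term, 1073 with the marker term, 511 without those 4 mutants and 1631 without bias adjustment (added after seeing the data). Leaving out 1 library gave 1621 (without mutant replicate 8) to 3390 accessions, 1 to 1 members, 2 to 4 regulator list genes and 10 to 20 structural genes. Of the 4 regulator lists, 3 genes were called as reported, 11 with voom weights, and 1 at 0.01, with the detected term, without those 4 mutants or without bias adjustment. Structural genes called, 16 as reported, were 35, 3, 3, 4, 3 and 10 with voom weights, at 0.01, with the detected term, with the marker term, without those 4 mutants and without bias adjustment. With the detected term, the marker term and without those 4 mutants, uncalled changes reversed sign: foxj1a to 0.091, 0.21 and 0.094, e2f4 to -0.0072, -0.11 and -0.14, atp1a1a.4 to 0.31, 0.35 and 0.27, and cdh17 to 0.15, 0.19 and 0.16. Those 4 mutants were also the lowest of their group in e2f5, foxj1a, cdh17, atp1a1a.4 and the structural sum. Leaving them out was thus bound to move these changes upward. The relation of e2f5 to foxj1a was weaker within siblings (r of 0.51), and the structural ratio was weaker without those 4 mutants (-0.20) and ran from -0.29 to -0.20 with 1 library left out. The e2f5 ratio ran from -0.92 to -0.68. Same-numbered libraries did not pair, with correlations of their deviations from -0.54 to 0.26 over 7 numbers. With the number as a block, 1097 accessions and 8 structural genes were called, e2f5 was -1.28 (edgeR adjusted p = 0.0295) and gli2a was no longer called. That fit also left out mutant replicate 8, which has no sibling of its number. Leaving out this library alone gave 1621 accessions and 10 structural genes, and gli2a was not called either. The causes were not tested. Low counts limit foxj1b, rfx3, gmnc and myb to counting intervals. Each had a row for 1 accession only, while RefSeq lists 4 transcripts for rfx3 and 2 for each of the others. Whether depth or the counting by accession kept these counts low was not tested.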

Other observations

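tfdp1a (NM_213492.2), a DP partner of the E2F proteins, was present or nearly absent by library. Mutant replicates 3, 4, 7 and 8 had at most 2 counts, whereas the other 4 mutant libraries and all 7 siblings had 94 to 302 counts, or 64.99 to 103.6 CPM. No other accession of the 33298 was at least 10-fold lower in each of these 4 libraries than in all others and above 8 CPM in the others. That search asked only for this same set of libraries. hnf1ba, of the pronephric list, was at 0.247 CPM in its lowest mutant and 0.301 CPM in its lowest sibling. Its medians were 203 CPM in mutants and 219 CPM in siblings. These 4 libraries only partly overlap those low in foxj1a, since mutant replicates 3 and 7 lay inside the sibling range of foxj1a. The pattern was chosen after its values were seen, and its cause was not tested.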
